A study of Mus musculus with 18 samples.

Results

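The cytosolic ribosomal protein genes were followed in MEFs (fibroblast cultures that derive from embryos of the mouse) after addition of uracil, a pyrimidine base. A member was any gene identifier of the count table that maps to a mouse protein-coding gene with a symbol starting with Rpl or Rps, leaving out the Rps6k kinases, Rps19bp1 and pseudogenes. This rule found 90 of the 55487 genes in the table, of which 55 belong to the large subunit, stalk included, and 35 to the small subunit. Of the 90 members, 85 passed the filter on low counts and were tested among 13865 genes. MEFs were held for 24 h in full growth medium with vehicle (0 µM uracil, the control), 10 µM uracil or 30 µM uracil, and each dose had 6 libraries, numbered 1 to 6, of ribosomal-RNA-depleted total RNA. The question put to these libraries here was whether RNA levels of the members differ between the doses. The study's methods call the libraries biological replicates. The labels give no strain, embryo or passage, so p-values measure the spread between these libraries, part of which may be technical.

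The libraries held 3963932 to 20775298 counts in genes, and their RNA carried the fibroblast markers fixed for this check, with 9 of 9 above 1 CPM (read counts relative to library size, after TMM scaling) in control cells. Endothelial, immune and muscle markers summed to at most 8.62, 2.96 and 1.67 CPM in any library, and Myod1 was at 0 throughout. In 3 libraries over 5% of all read pairs stood in the table's entry for unaligned pairs, with 54.2% in control 1, 5.24% in 10 µM 6 and 37.9% in 30 µM 6, against 1.72% to 3.59% in the other 15. The study's methods state that a control sample and a sample of the higher dose were left out of its own comparison because they held human RNA, and name no such sample of the lower dose. The labels do not say which samples these were. Dose and number results are therefore given with and without these 3 libraries.

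Ribosomal proteins are the protein part of the machine that reads mRNA into protein. The large subunit joins amino acids, the small subunit decodes the mRNA, and a stalk of acidic proteins on the large subunit recruits the factors that drive each step. Their mRNAs are short, abundant and, in mammals, begin with a stretch of pyrimidines (C and T) through which growth signals control their translation. Mammalian genomes also carry many processed copies of these mRNAs, which leave short reads with several equally good positions.

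The copies matter here because pairs that aligned to several places were not counted, and they made up 17.4% to 20.2% of all pairs in the 15 libraries. Of all 75-base windows in a member's coding sequence (the length of 1 read), a median of 77.99% recurred letter for letter elsewhere in the GRCm39 genome, while the median over mitochondrial ribosomal protein genes was 0%. All windows recurred in 23 members, and none did in 5, Rpl39l among them. Rpl7a had copies at 64 loci, Rpl21 at 60, Rps2 at 53 and Rpl29 at 45. The windows below run from a coding window with many exact copies to a member that has none. The pair Rps27 and Rps27rt is printed because a read from this stretch alone cannot be given to either gene.
Rpl21, exon, chr5:146771807-146771881, plus strand, 22 exact copies elsewhere: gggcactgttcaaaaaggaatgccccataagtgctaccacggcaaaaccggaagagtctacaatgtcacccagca
Rps16, exon, chr7:28051600-28051674, plus strand, 2 exact copies elsewhere: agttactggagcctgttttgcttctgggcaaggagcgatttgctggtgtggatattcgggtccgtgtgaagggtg
Rps27, exon, chr3:90120521-90120595, minus strand, 3 exact copies elsewhere: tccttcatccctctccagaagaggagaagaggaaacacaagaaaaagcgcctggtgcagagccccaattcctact
Rps27rt, exon, chr9:114811682-114811756, minus strand, 3 exact copies elsewhere: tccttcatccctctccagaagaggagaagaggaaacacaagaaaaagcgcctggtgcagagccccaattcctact
Rpl39l, exon, chr16:9992174-9992248, plus strand, 0 exact copies elsewhere: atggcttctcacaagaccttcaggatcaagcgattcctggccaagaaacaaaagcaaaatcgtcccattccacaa

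Windows were cut from the spliced coding sequence and looked up in the genome. Every window of Rps27 also occurred in Rps27rt, a gene with 1 coding exon on chromosome 9, and 44.4% of those of Rps27rt lay within an exon of Rps27. Rpl35 shared 74.6% of its windows with Rpl35rt, and Rps23 shared 62.8% with Rps23rg1. In these pairs the counts of both partners are uncertain. Of the 90 members, 30 hold a small nucleolar RNA within their bounds, introns included, and 7 overlap another gene on the same strand. Pairs that matched several genes stood in an entry of their own and were not counted. The counts of these members may be affected, in a direction that was not tested.

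The pyrimidine stretch was looked for at the annotated start sites. RefSeq gave promoters (build GRCm38.p6) for 66 of the 90 members. A start base C followed by at least 4 further pyrimidines was found in 14 of these 66 (21.2%), against 3.01% of all genes in the promoter table. The letters CTTTCC lay on the sense strand within 50 bases of the start in 31.8% of members and 5.43% of all genes. CCGGAAG, a core of ETS factor sites, lay on either strand of the 300-base window in 39.4% of members and 9.93% of all genes, and the motifs were searched independently of each other, so that 1 stretch can hold both. These are matches of letters and not measured sites. The starts printed here were picked from members that have such a stretch and are named below. Other members described below had none at their annotated starts, among them Rpl39, Rpl39l, Rps3a1, Rps16, Rpl22l1, Rpl36al and Rps15. Each printed start runs from 10 bases before the start to 20 after, with the pyrimidine stretch in capitals.
Rps6, chr4:86857348-86857377, minus strand: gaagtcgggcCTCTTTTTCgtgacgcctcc
Rpl35, chr2:39005112-39005141, minus strand: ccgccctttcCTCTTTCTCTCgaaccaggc
Rpl35a, chr16:33056472-33056501, plus strand: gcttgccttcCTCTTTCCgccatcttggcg
Rplp2, chr7:141447641-141447670, plus strand: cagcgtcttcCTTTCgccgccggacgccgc
Rps27, chr3:90213629-90213658, minus strand: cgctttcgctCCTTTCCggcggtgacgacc
Rps27rt, chr9:114982720-114982749, minus strand: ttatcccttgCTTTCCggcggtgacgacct

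Members took 4.95% to 5.62% of all gene counts in the 15 libraries with few unaligned pairs. Scaled by coding length, their median level in the 5 such control libraries was 1193 CPM per kb, against 19.8 over 12054 coding genes and 52.0 over mitochondrial ribosomal proteins, and 76 of the 85 tested lay in the top 5% of coding genes. The order was led by Rpl41, the smallest protein of the large subunit, at 7819 ± 844 CPM per kb (SD, n = 5). The stalk genes Rplp1 and Rplp0 followed with 4560 ± 227 and 3270 ± 191, and then Rps20 of the small subunit head with 2543 ± 106 and Rpl12 at the base of the stalk with 2108 ± 83.6. Each of the first 4 lay above the next by more than their SDs, whereas Rpl12 lay within 1 SD of the sixth gene, Rpl32. At the other end stood Rpl21 with 32.5 ± 1.58 CPM per kb, Rps4l with 31.1 ± 5.55, Rps27rt with 14.5 ± 3.79, Rpl29 with 8.84 ± 1.54 and Rpl39l with 3.63 ± 3.39. Rpl21 and Rps4l did not differ beyond their spread. Rpl21 and Rpl29 encode constitutive proteins of the large subunit and are the members with 60 and 45 loci of copies, so that a low count here need not mean little mRNA. Over the 85 members the level per length and the share of recurring windows had a Spearman correlation of -0.20, a description across genes. The order by level rests on scaling by coding length, which is 138 bases in Rpl41. In CPM without that scaling, genes such as Rplp0, Rpl4 and Rplp1 lay above Rpl41 in each control library.

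The other tested members filled the range between. Rpsa, which also carries the laminin receptor name, had 1645 ± 150 CPM per kb, and Rplp2, the third stalk protein, 1602 ± 84.4. Rps19, a frequent site of mutation in Diamond-Blackfan anaemia, had 1239 ± 91.6, Rps27a, made as a fusion with ubiquitin, 1160 ± 35.1, and Rpl3, near the peptidyl transferase centre, 1097 ± 50.3. Rpl11 and Rpl5, which join the 5S rRNA and can bind the p53 regulator Mdm2, had 965 ± 27.7 and 894 ± 47.3. Rps6, the S6 kinase substrate, had 758 ± 58.7. These neighbours in the order often lay within 1 SD of each other. The ratio of summed large to small subunit CPM was 1.48 to 1.52 in the 15 libraries and 1.47, 1.51 and 1.57 in control 1, 10 µM 6 and 30 µM 6.

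**Figure D1:**
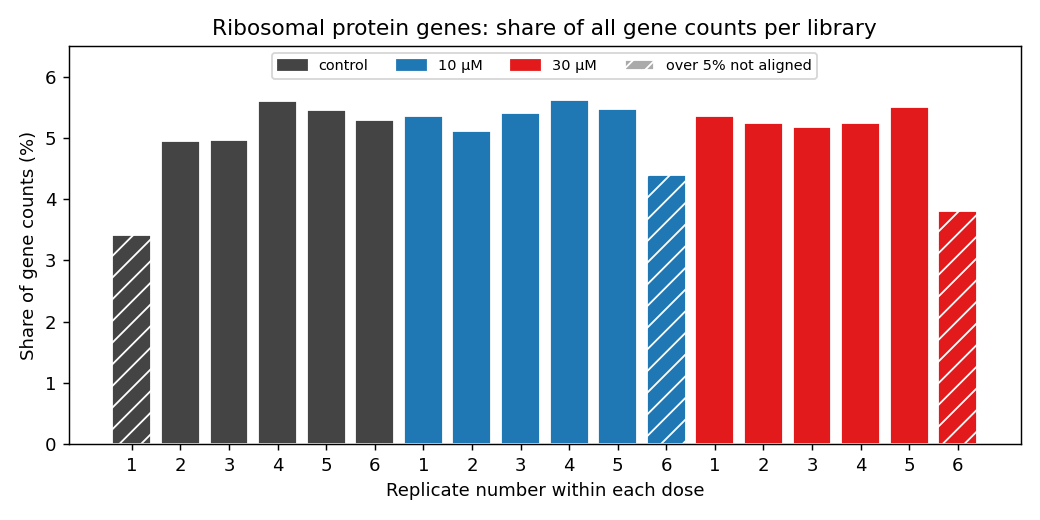
Bars give the summed counts of the 90 members as a percent of all gene counts in each library, by dose (colour) and replicate number (x axis), with hatching for the 3 libraries with over 5% unaligned pairs. The hatched bars stand at 3.42%, 4.39% and 3.81%, below the lowest of the others at 4.95%.

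Uracil left the ribosomal protein genes without a called change at either dose. In 10 µM uracil against control, 0 of 85 members passed an adjusted p of 0.05 in edgeR's quasi-likelihood test (0% of all genes tested), 0 had an unadjusted p under 0.05 (0.692% of all genes), and DESeq2 called 0. The members' median log2 fold change was 0.07, with 78 of 85 above 0, against 52.7% of all genes and a median of 0.01 over all genes. In 30 µM uracil against control, the numbers were again 0 called (0% of all genes), 0 with an unadjusted p under 0.05 (4.29% of all genes) and 0 in DESeq2. The median was 0.04, with 54 of 85 above 0 against 53.5% of all genes. In 30 µM against 10 µM, 0 were called (0% of all genes), 0 had an unadjusted p under 0.05 (2.33% of all genes), DESeq2 called 0, and the median was -0.03 with 30 of 85 above 0 against 52.1% of all genes. The comparisons share libraries, so the values are set side by side only. In bulk RNA fewer cells and less RNA per cell cannot be told apart.

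The intervals bound what could have gone unseen. The 95% interval of the fold change stayed within 1.5-fold of no change for 82, 82 and 81 of the 85 members in the 3 comparisons. Without the 3 libraries the median standard error of the members fell from 0.11 to 0.05 on the log2 scale. In that fit the medians were 0.04, 0.01 and -0.03, with 74, 57 and 20 of 85 members above 0 against 49.5%, 48.5% and 51% of all genes. Again 0 members were called, and 0, 1 and 3 members had an unadjusted p under 0.05, against 4.72%, 4.33% and 1.88% of all genes. The medians moved with single libraries. Without control 1 the median of 10 µM against control was 0.00 (-0.001) and that of 30 µM against control -0.04, and without 30 µM 6 that of 30 µM against 10 µM was 0.01. Without control 4 the median of 10 µM against control was 0.12. In the alternatives other than leaving out 1 library, this median stayed above 0, at 0.04 to 0.09. With length and GC content of the coding sequence removed by a spline, the median of 30 µM against 10 µM was 0.00 (-0.0001).

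**Figure D2:**
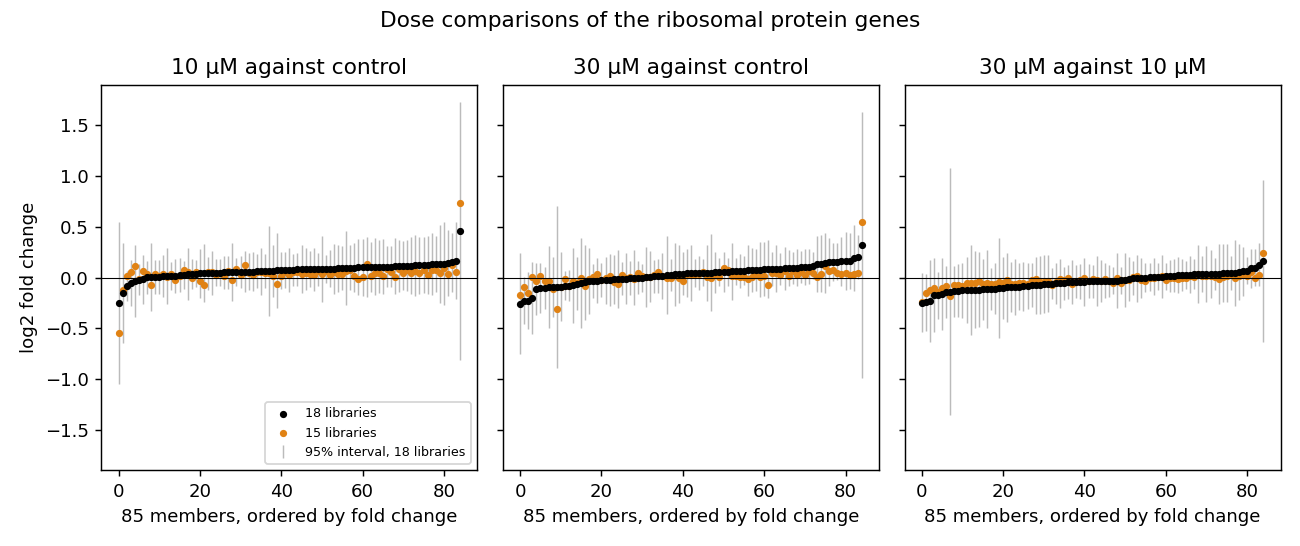
Each panel orders the 85 tested members by log2 fold change (y axis) in 1 dose comparison, with black points and grey 95% intervals from 18 libraries and orange points from 15. The orange points lie close to 0 for nearly all members, with medians of 0.04, 0.01 and -0.03, and the widest intervals belong to Rpl39l and Rps16.

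The members with the smallest p-values overlapped between doses. At 10 µM, Rps24, whose protein takes part in small subunit maturation, had 500.7, 600.4 and 664 CPM as the lowest, median and highest of 6 control libraries and 560.2, 645 and 677 in 10 µM. The groups overlapped, and the log2 fold change was 0.08 ± 0.06 (SE, adjusted p = 1.00 in edgeR). Rpl27a had a log2 fold change of 0.11 ± 0.10. On the lower side Rps27a stood at 521, 544 and 691 CPM in control and 459, 547 and 565 in 10 µM, with a log2 fold change of -0.08 ± 0.07 that became 0.02 ± 0.03 without the 3 libraries. Its highest control value was control 1 and its lowest treated value 10 µM 6. Rps16 and Rps27rt had -0.25 ± 0.38 and -0.15 ± 0.23, and both are described further below.

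At 30 µM, Rplp2 of the stalk had 371, 539 and 585 CPM in control and 539, 557 and 742 in 30 µM, with a log2 fold change of 0.20 ± 0.10 (unadjusted p = 0.0635, adjusted p = 0.931 in edgeR). The lowest control value was control 1 and the highest treated value 30 µM 6, and without the 3 libraries the change was 0.05 ± 0.06. Rps14, the small subunit protein whose loss marks the 5q deletion syndrome of humans, had 0.16 ± 0.09 with all libraries and 0.04 ± 0.06 without the 3. Rpl6 had 0.12 ± 0.06 and 0.04 ± 0.04. Rpl22l1, the paralogue of Rpl22, stood at 169, 179 and 220 CPM in control and 107, 169 and 184 in 30 µM, with -0.23 ± 0.11 (unadjusted p = 0.0533, adjusted p = 0.931 in edgeR), lower at all 6 replicate numbers. Without the 3 libraries it was -0.09 ± 0.06. Rpl22l1 was named for its small p in this comparison, so its common direction over the numbers is no separate support. Rpl36al, a paralogue of Rpl36a with 1 coding exon, stood at 50.9, 60.0 and 72.8 CPM in control and 28.01, 57.3 and 60.9 in 30 µM, with -0.23 ± 0.13. Without the 3 libraries it had -0.15 ± 0.07, and it was the 1 member with an unadjusted p under 0.05 there (0.0443, adjusted p = 0.944 in edgeR). Rps27a had -0.08 ± 0.07 and -0.02 ± 0.03.

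Between the doses Rpl36al, Rpl29 and Rpl22l1 were lower in 30 µM than in 10 µM at all 6 numbers, with log2 fold changes of -0.24 ± 0.13, -0.25 ± 0.14 and -0.17 ± 0.11 (SE) and adjusted p = 1.00 in edgeR for each. These members were named for the smallest p on the lower side of this comparison, so the shared direction is no separate support. Without the 3 libraries the fold changes were -0.15 ± 0.07, -0.24 ± 0.13 and -0.14 ± 0.06. The 3 members with an unadjusted p under 0.05 in that fit were Rpl22l1 (unadjusted p = 0.0238), Rpl35a (0.0312) and Rpl36al (0.0420), where 1.88% of all genes had one, and the lowest adjusted p of any gene was 1.00 in edgeR. Rpl35a was named after its values were seen. Rplp2, Rps14 and Rpl6 led on the higher side with 0.13 ± 0.10, 0.10 ± 0.09 and 0.07 ± 0.06, of which Rps14 became -0.01 ± 0.06 without the 3 libraries.

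The proteins always named showed no called difference. Rplp0 had 2913 ± 509, 3105 ± 232 and 3094 ± 338 CPM (SD, n = 6) in control, 10 µM and 30 µM, and without the 3 libraries 3110 ± 182, 3190 ± 112 and 3228 ± 96.3 (n = 5). Rplp1 had 1560 ± 77.7, 1607 ± 91.3 and 1610 ± 71.0 without them. Rpl5 had 797 ± 42.1, 829 ± 27.8 and 815 ± 19.7, and Rpl11 had 515 ± 14.8, 532 ± 21.3 and 540.3 ± 17.2. Rps6 had 566 ± 43.8, 589 ± 34.9 and 596 ± 43.3. In each of these the doses overlapped.

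Replicate number, tested beside dose, gave calls in a few members. Among the 6 numbers, each with 1 library per dose, 4 of 85 members were called at an adjusted p under 0.05 (edgeR F test, dose as covariate), where 12.6% of all genes were. Without the 3 libraries 13 of 85 were called, against 20.8% of all genes, so the members' share lay under the background in both fits. The count also moved with single libraries, to 12 without control 1, 15 without control 6, 1 without 10 µM 6, and 2 without 30 µM 2, control 5 or 10 µM 5. DESeq2 called 7.

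The 4 were Rpl39l, Rps3a1, Rpl39 and Rps4l, and 2 of them are paralogues of abundant members. Rpl39l, a paralogue of Rpl39 known for its expression in the testis, had 5 to 30 counts per library at numbers 1 to 3 and 0 to 4 counts at numbers 5 and 6, with 3, 12 and 8 at number 4 (adjusted p = 3.5e-04 in edgeR). Its means over the 3 libraries of a number were 1.39, 1.11, 1.30, 0.566, 0.239 and 0.0976 CPM from number 1 to 6. Rpl39, which lines the exit tunnel, had means of 407, 365, 353, 343, 308 and 236 CPM (adjusted p = 0.0185 in edgeR), with 30 µM 6 at 152 CPM and 10 µM 6 at 256.3. It stayed called without the 3 libraries (adjusted p = 0.009996 in edgeR).

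Rps4l, a paralogue with 1 coding exon of the X-linked Rps4x, had 26.3 to 29.1 CPM in the libraries of numbers 1 to 4 other than control 1, which had 17.2. It had 21.8 to 22.3 CPM at number 5 and 17.03 to 21.5 at number 6 (adjusted p = 0.0209 in edgeR, 1.6e-04 without the 3 libraries). Numbers 1 to 4 and numbers 5 and 6 did not overlap apart from control 1. Rps4x itself had 1066 to 1360 CPM in the libraries other than 30 µM 6, at 767, and was not called. Rps3a1, at the mRNA exit of the small subunit, had number means of 786, 771, 769, 769, 668 and 599 CPM (adjusted p = 0.0151 in edgeR, 0.00159 without the 3 libraries). It was no longer called with the spline on length and GC content (adjusted p = 0.346 in edgeR) or with a filter of at least 1 count (adjusted p = 0.0655 in edgeR, with 9.9e-07 in DESeq2 as the lowest of the alternatives). Single libraries decided these calls, since without 10 µM 6 the adjusted p-values in edgeR were 0.118 for Rps3a1, 0.0607 for Rpl39 and 0.128 for Rps4l. That of Rps4l also passed 0.05 without control 2, 4 or 5, 10 µM 2 or 5, and 30 µM 2 or 5, and that of Rps3a1 without 30 µM 2, control 5 or 10 µM 5. Rpl39l stayed called throughout.

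The other members named by this test had adjusted p-values from 0.0629 to 0.618 with all 18 libraries. Rps15, at the decoding centre, had means of 575, 668, 683, 789, 839 and 783 CPM and an adjusted p of 9.5e-06 without the 3 libraries (edgeR). Rps27rt had 3.87 to 5.496 CPM at number 4, and 1.24 to 4.21 in the others (adjusted p = 0.167, and 0.0160 without the 3 libraries, edgeR). Rps27, with which it shares coding windows, had 433.7 to 491 CPM at number 4 and 255 to 479 in the others. Rpl22l1 had adjusted p-values of 0.0629 and 0.0724 in edgeR with and without the 3 libraries, and passed the threshold in DESeq2 (0.0110) and in edgeR without control 1 (0.0494) or control 6 (0.00474). The members called without the 3 libraries also included Rpl7a, Rpl41, Rps12, Rps19 and Rpsa, named after their values were seen.

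Marker RNA of another cell type differed by number, without a test. The 4 mesothelial markers Upk3b, Msln, Wt1 and Lrrn4, all above 1 CPM in control cells, summed to means of 38.7, 41.9 and 46.7 CPM at numbers 1 to 3 and 106, 162 and 128 at numbers 4 to 6. The 4 epithelial markers summed to 5.89, 8.10, 4.77, 13.3, 11.97 and 9.77 CPM, with Epcam at no more than 1.69. Their part in the members' differences was not tested.

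**Figure D3:**
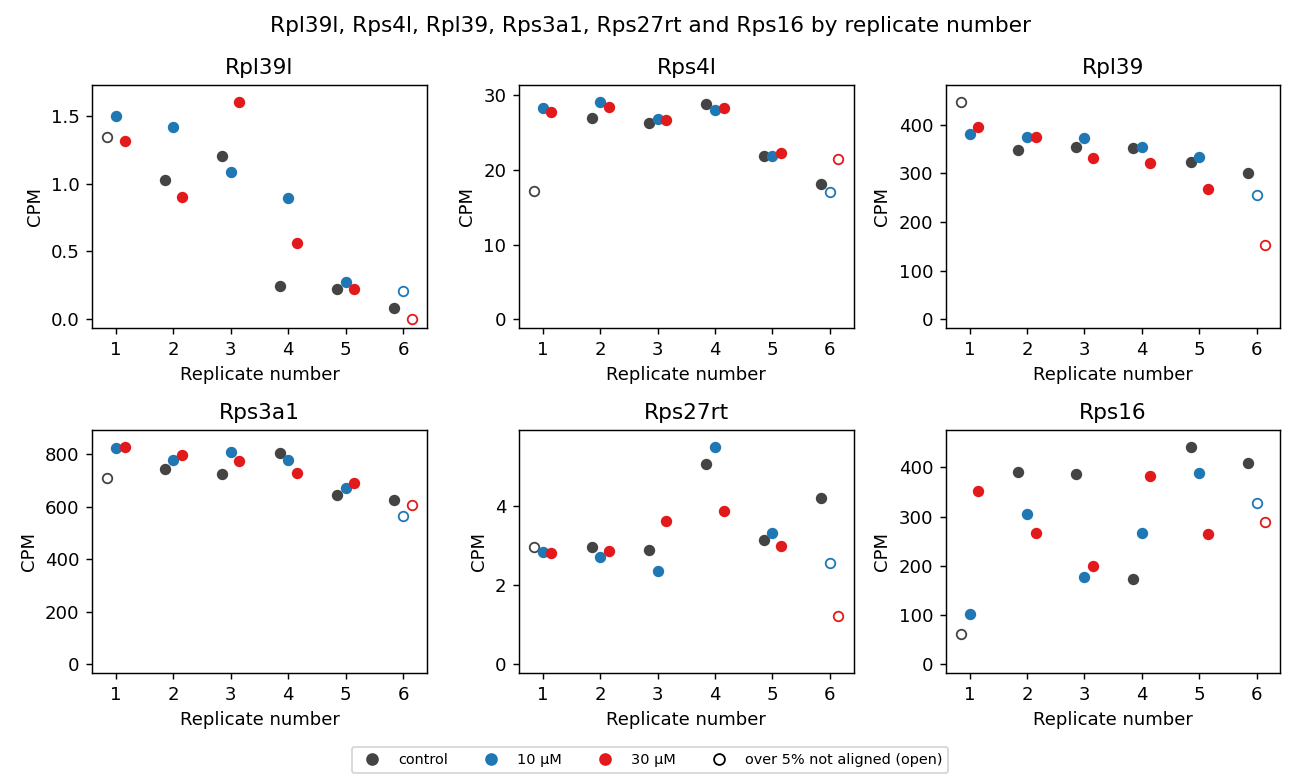
TMM-scaled CPM (y axes, each from about 0) of 6 members against replicate number, with 1 point per library coloured by dose and open points for the 3 libraries with over 5% unaligned pairs. Rpl39l, Rps4l, Rpl39 and Rps3a1 are lower at numbers 5 and 6 than at 2 to 4 on average, Rps27rt peaks at number 4, and Rps16 varies at most numbers with no common order of the doses.

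Rps16, a small subunit protein near the decoding centre, spread more than any other abundant member. It lay between 101.3 CPM in 10 µM 1 and 441 CPM in control 5 among the 15 libraries, a 4.35-fold range, whereas the median member had a 1.19-fold range and 79 of 85 stayed under 1.5-fold. Only Rpl39l, with single-digit counts in some libraries, had a wider range. Low values fell at all doses, with 173 CPM in control 4, 178 in 10 µM 3 and 200 (199.7) in 30 µM 3, and high values of 383 to 441 in control 2, 3, 5 and 6, 10 µM 5 and 30 µM 4. Control 1 was lowest of all 18 libraries, at 61.4 CPM from 228 counts. Neither dose nor number was called for Rps16 (lowest adjusted p = 0.618 in edgeR with all 18 libraries, for number). With single libraries left out, the adjusted p for number went as low as 0.0847 in edgeR, without 30 µM 1. The entry of its processed pseudogene Rps16-ps2 on chromosome 5, looked up after these values were seen, moved alongside, from 13.5 to 52.6 CPM, and kept 10.5% to 13.3% of the Rps16 count in each of the 15 libraries and 8.77% in control 1. All windows of Rps16 recur elsewhere, at 3 loci, and a read from such a window could stem from either gene.

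Most members varied little. Over the 15 libraries the SD of log2 CPM had a median of 0.07 over members and 0.14 over all genes tested. Of the 85 members, 65 correlated above 0.5 with the median of all members, a description over 15 libraries that share depth and scaling. Each member is part of that median, and the same share over all genes was not computed. The members' median deviation itself had an SD of 0.05. With the 3 libraries included it was 0.17.

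**Figure D4:**
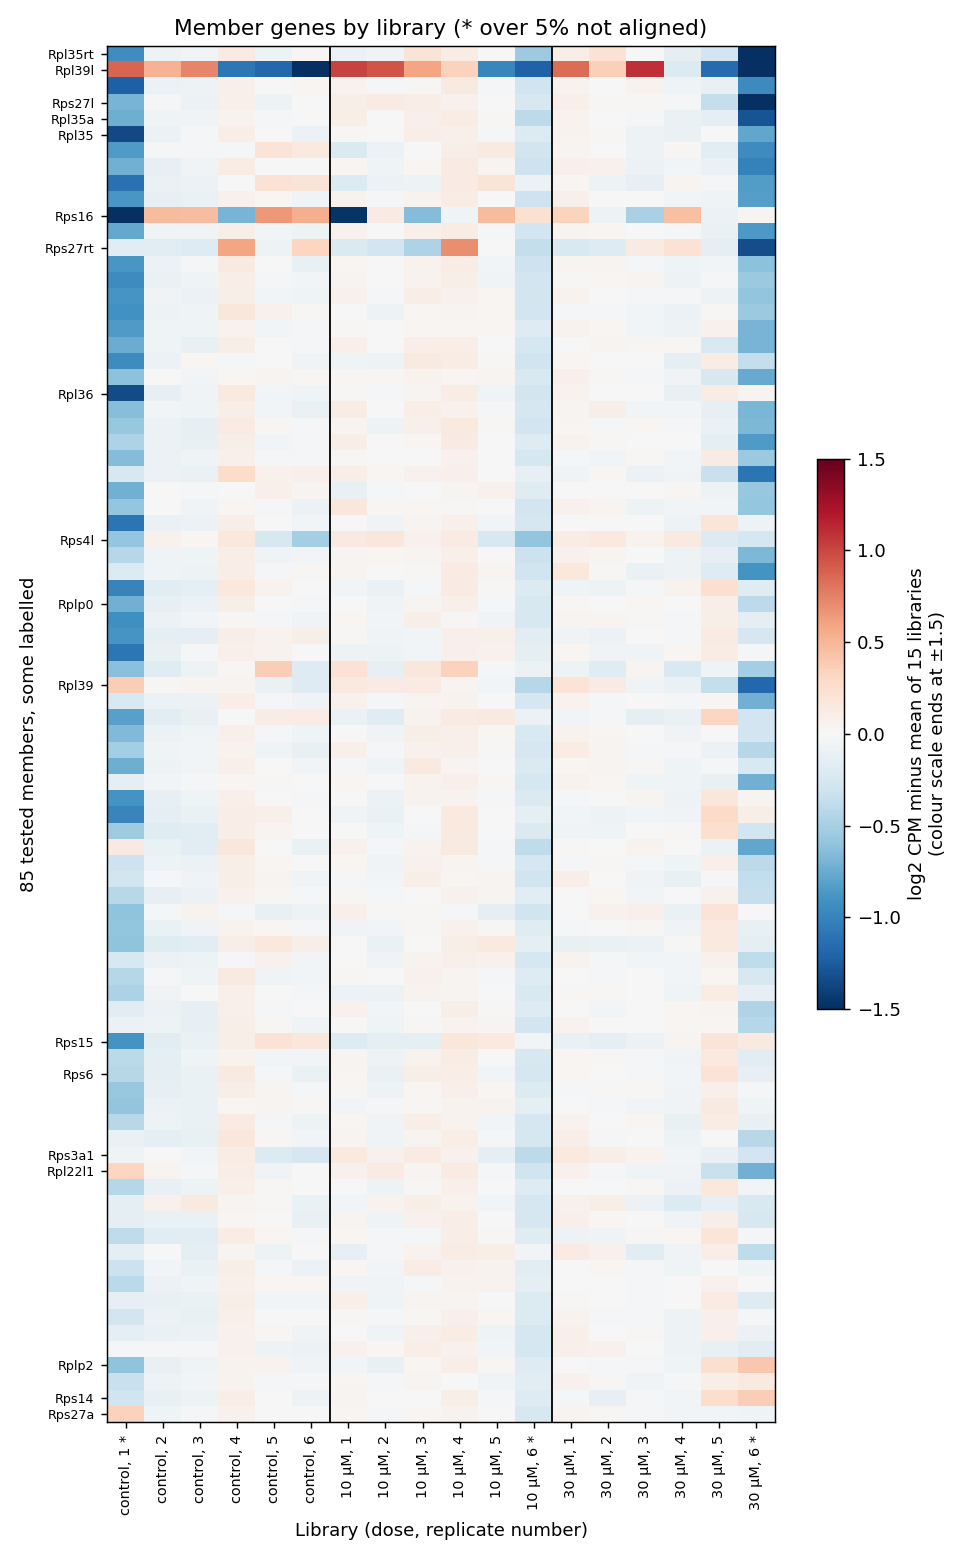
Rows are the 85 tested members, some of them labelled, and columns the 18 libraries by dose and number, with stars on the 3 libraries with over 5% unaligned pairs, and colour gives log2 CPM minus the member's mean over the other 15 libraries. Blue fills the starred columns, most of all control 1, while Rpl39l, Rps16 and Rps27rt vary among the other columns.

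The largest shift of the family stood in the 3 libraries with many unaligned pairs. The members' share of gene counts was 3.42% in control 1, 4.39% in 10 µM 6 and 3.81% in 30 µM 6. Against the 5 other libraries of the same dose, the median log2 ratio of members was -0.54, -0.26 and -0.36. The median over all genes was -0.003, -0.01 and -0.02. Each of the 15 other libraries was set only against those of the 15 at its own dose, a different reference. Their member medians were -0.08 to 0.12. In control 1, 74 of 85 members lay below all 5 others, where 37.0% of all genes did, and 4 lay above, where 36.7% did. In 10 µM 6, 78 lay below and 0 above, against 29.8% and 29.6% of all genes. In 30 µM 6, 70 lay below and 3 above, against 37.3% and 34.2%. All 3 libraries had 56 of the 85 tested members below the others of their dose, and 1448 of the 13865 genes. With 1 library against 5 there is no replicate on one side, and these are descriptions without a test.

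The members did not shift evenly. Among members with a mean of at least 10 CPM, the lowest in control 1 were Rps16, with 61.4 CPM against 360.2 ± 107 (SD, n = 5) and a log2 ratio of -2.48, Rpl35 at the tunnel exit, with 182 against 460 ± 24.4 and -1.33, and Rpl36, with 131 against 326 ± 23.8 and -1.31. The highest were Rpl39, with 446 against 335 ± 23.8 and 0.41, Rps27a with 0.35 and Rpl22l1 with 0.31. By the same limit, the lowest in 10 µM 6 were Rps4l, with 17.03 against 26.8 ± 2.89 CPM and -0.64, Rpl35rt with -0.58 and Rpl39 with -0.50. The highest there was Rps16, with 328 against 248 ± 112 CPM and 0.54, inside the range of the 5 others, followed by Rps15 with -0.02 and Rpl21 with -0.06. Rpl39l, under that limit, was above all 5 others in control 1, with 1.35 CPM from 5 counts, and below them in 10 µM 6 and 30 µM 6, with 3 and 0 counts. In 30 µM 6 the lowest were Rpl35rt, with 10.8 against 31.2 ± 4.17 CPM and -1.505, Rps27l, a p53-responsive paralogue of Rps27, with 67.9 against 189 ± 21.4 and -1.47, and Rpl35a, with 47.5 against 114 ± 6.501 and -1.25. Rplp2 with 742 against 574 ± 50.6 CPM and Rps14 with 1151 against 901 ± 94.2 lay above all 5 others there, and Rps15 lay inside their range with 0.15.

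Rpl39 and Rpl22l1 thus lay above all others of their dose in control 1 and below all in 10 µM 6 and 30 µM 6. Across the 85 members the ratios of 10 µM 6 and 30 µM 6 had a Pearson correlation of 0.66 (Spearman 0.60), while those of control 1 had -0.61 (-0.20) with 10 µM 6 and -0.26 (-0.01) with 30 µM 6. Over all genes tested the same 3 Pearson values were 0.71, 0.35 and 0.34. Genes are not independent replicates, and these are descriptions.

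Sequence composition moved with these ratios. The coding sequences of members are short, with a median of 453 bases against 1407 over all genes tested, and have a median GC content of 52.6% against 53.0%. Among members, the ratio had a Spearman correlation with coding GC content of -0.49 in control 1, 0.36 in 10 µM 6 and 0.40 in 30 µM 6, and with coding length of -0.07, 0.40 and 0.45. Over the 12054 coding genes it had 0.24, 0.39 and 0.34 with coding length and -0.19, -0.05 and 0.39 with GC content. The share of recurring windows gave 0.00 (-0.002), 0.02 and -0.01 among members. With length and GC content removed by the spline, the members' medians were -0.33, -0.11 and -0.04 in the 3 libraries. With library totals alone they were -0.66, -0.32 and -0.57, where the median of all genes was -0.12, -0.07 and -0.22.

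Other values of these libraries moved too. Pairs aligned to several places made up 5.59%, 13.9% and 6.46% of all pairs in control 1, 10 µM 6 and 30 µM 6. Pseudogene entries with an Rpl or Rps symbol marked -ps took 0.180%, 0.250% and 0.216% of gene counts, against 0.293% to 0.325% in the other 15. Copies under other names are not in these shares. The 9 fibroblast markers summed to 49610.5, 38464.3 and 68858.5 CPM, against 27853 to 34237 CPM in the other 15, and the mesothelial markers to 27.2, 120 (119.6) and 136 CPM, against 39.8 to 174. Their part in the members' lower share was not tested.

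**Figure D5:**
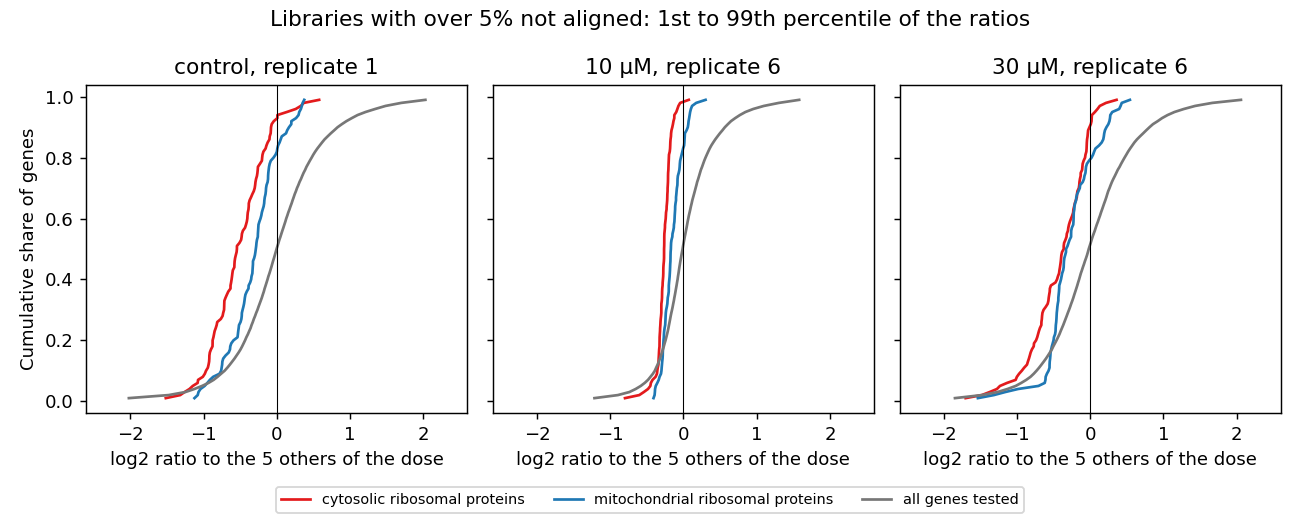
Each panel shows, for 1 library with over 5% unaligned pairs, the cumulative share of genes (y axis) by log2 ratio to the 5 other libraries of its dose (x axis), for cytosolic ribosomal proteins, mitochondrial ribosomal proteins and all genes tested. The curve of the cytosolic members lies left of that of all genes, with medians of -0.54, -0.26 and -0.36.

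The 77 mitochondrial ribosomal protein genes tested, which serve the separate ribosome of the mitochondrion, had median log2 ratios of -0.29, -0.17 and -0.33 in the 3 libraries. Their medians over the dose comparisons, in the order used above, were 0.04, 0.03 and -0.03, with 0 called in each and 0, 0 and 1 by unadjusted p (edgeR). The 20 other translation genes, such as elongation factors, had ratios of -0.24, -0.12 and -0.19. They were listed as genes with pyrimidine starts, but their starts were not examined here as a set. The 38 genes of ribosome assembly and rRNA transcription had -0.13, -0.003 and 0.11, and the 15 genes of growth and translation control 0.22, 0.34 and 0.58. These 3 lists had 0 genes called in each dose comparison (edgeR), and 0, 1 and 1 genes with an unadjusted p under 0.05 over the 3 comparisons together. Among replicate numbers 1 of 77, 2 of 20, 5 of 38 and 3 of 15 were called in the 4 lists, against 12.6% of all genes. These counts were 5, 6, 13 and 3 without the 3 libraries, against 20.8% of all genes.

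Paralogue pairs differed in level. In control cells Rpl22 and Rpl22l1 had 872 ± 38.7 and 489 ± 20.6 CPM per kb of coding sequence (SD, n = 5), Rpl36a and Rpl36al 779 ± 45.1 and 196 ± 21.1, Rpl7 and Rpl7l1 1543 ± 84.7 and 179 ± 9.28, and Rps27 and Rps27l 1694 ± 157 and 764 ± 36.6. Rpl39 and Rpl39l had 1415 ± 100.6 and 3.63 ± 3.39, and Rps4x and Rps4l 1571 ± 88.7 and 31.1 ± 5.55. Each first-named gene lay above its paralogue in all 18 libraries. Rpl3 and Rpl10 had 1097 ± 50.3 and 1296 ± 44.7, and Rpl27 872 ± 42.2. Some paralogues had few or no counts, with 0 in all 18 libraries for Rpl3l, a striated-muscle form of Rpl3, and for Rpl10l, the testis form of the X-linked Rpl10. Rpl27rt had 20 counts, Rps23rg1 6 and Rplp1rt 1 over all libraries. Of the windows of Rps23rg1, 77.7% recur elsewhere, so its count says little of its mRNA. At these depths the values show low detection and not absence.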

How the data were processed

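RNA-seq of MEFs was read from 1 table of raw counts per gene, as deposited by the authors, with 18 columns for 3 doses and 6 libraries each. Per the labels' processing notes, the authors used FastQC, HISAT2, SAMtools 1.2 and HTSeq. The notes name build GRCh38, while the identifiers in the table are those of mouse genes. Which mouse build, annotation and strand option were used is not given in the sources used here. Entries for unaligned, multiply aligned and unassigned pairs stayed out of library sizes and tests. GENCODE M39 (GRCm39) named 51731 of the 55487 identifiers, and coding lengths are those of the canonical transcript, which 86.9% of genes tested have.

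Groups came from the labels. Counts were filtered by filterByExpr, scaled by TMM and tested with edgeR 4.0.16 in R 4.3.3 (quasi-likelihood, Benjamini-Hochberg over all genes tested), with dose as the only term, or replicate number beside dose. Log2 CPM used a prior count of 2. Alternatives were DESeq2 1.42.0, other size factors and filters, a spline on coding length and GC content, the replicate number as a block, and leaving out each library or the 3 with over 5% unaligned pairs. The steps were tested on simulated data. No library pair agreed within sampling noise (lowest chi-square per degree of freedom 1.77).

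The members and lists were chosen with earlier results of these data known. Named are the stalk, 5S-binding and ubiquitin-fusion genes, Rps6, Rpsa, Rpl3, Rps19 and the paralogue pairs, the 3 members with the smallest p in each direction of a dose comparison, the 8 with the smallest p and the 3 with the widest range among numbers, the 3 highest and 3 lowest in each library with over 5% unaligned pairs, and the 5 highest and 5 lowest in control. A few results that this rule would name are not reported here.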

Additional observations from a re-analysis of the deposited data

Results flagged for a closer look

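Within each dose, 129 groups of 6 libraries (the members' share of gene counts and the CPM of named members) were examined for 1 value far from the rest, by Dixon's test at its 95% critical value. Chance alone passes about 1 in 20 groups, but some of these members were named for standing apart in the 3 libraries with over 5% unaligned pairs, so that rate is no measure for the count here. A value stood apart in 40 groups, 38 of them in those 3 libraries.

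The share of gene counts stood apart in control 1, at 3.42%, and in 30 µM 6, at 3.81%. In control 1 the low values among large subunit genes were Rpl3 at 887 CPM, Rpl6 at 635, Rpl10 at 471, Rpl11 at 280.4, Rpl12 at 636, Rpl27 at 154, Rpl27a at 444, Rpl35 at 182, Rpl35a at 70.3, Rpl35rt at 16.4 and Rpl36 at 131. The stalk genes Rplp0 and Rplp2 stood at 1928 and 371 CPM. Small subunit genes were low with Rps19 at 398 CPM, Rps27l at 121 and Rpsa at 733. High values in the same library were Rpl22l1 at 220 (219.8) CPM and Rps27a at 691.

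In 10 µM 6 the low values were Rpl10 at 739 CPM, Rpl22l1 at 143, Rpl35a at 88.8, Rps4x at 1066, Rps27 at 336, Rps27a at 459 and Rps27l at 165. In 30 µM 6 they were Rpl5 at 595 CPM, Rpl7l1 at 106, Rpl10 at 522, Rpl27 at 185, Rpl27a at 575, Rpl35 at 270.3, Rpl35a at 47.5, Rpl36a at 188, Rplp0 at 2427, Rps4x at 767 and Rps27 at 255. Elsewhere, Rps27rt stood at 5.496 CPM in 10 µM 4, where the others had 2.37 to 3.34, and Rpl3 at 1470.1 CPM in 30 µM 5, where the others had 1283 to 1351.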

How the results depend on the processing

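Of 239 values that answer a comparison under an alternative, 225 stayed within a set limit of the main value and 14 moved beyond it. For counts of called members the limit was a ratio to the main count, and for medians it was an SD between library medians. For the dose medians that SD was 0.172, larger than each of these medians in size. A change of their sign could therefore pass as kept. The count of members called for dose was 0 in all 3 comparisons under every alternative run. The count called among replicate numbers, 4, was 7 in DESeq2, 13 without the 3 libraries with over 5% unaligned pairs, and 1 to 15 when single libraries were left out. The members' median log2 ratio in control 1, 10 µM 6 and 30 µM 6 was -0.66, -0.32 and -0.57 with library totals alone and -0.332, -0.107 and -0.0448 with the spline on length and GC content. The cause was not tested.

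Of 539 dose values of named members, 8 changed direction, none of them called. With the spline, Rps27a in 30 µM against control was 0.0230 and Rpl22l1 in 30 µM against 10 µM 0.0534. Without the 3 libraries, Rps27a in 10 µM against control was 0.0173 and Rps14 in 30 µM against 10 µM -0.01 (-0.0057). With the replicate block without the 3 libraries these were 0.01 (0.0145) and -0.01 (-0.0093), and with the block and the spline Rps27a in 30 µM against control was 0.02 (0.0198) and Rpl22l1 in 30 µM against 10 µM 0.05 (0.0507). Of 232 number tests of named members, 15 lost and 13 gained a call.

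The libraries share replicate numbers, but the labels do not say what a number stands for. Deviations of same-numbered libraries had a median correlation of 0.40, against -0.06 for libraries of other numbers. It was over 0.1 in 16 of 18 same-numbered pairs, with -0.10 as the lowest. Of 18 libraries, 14 correlated best with their own number, and 12 of 15 did without the 3 libraries. With the replicate block the dose medians were 0.08, 0.04 and -0.04, and 0 members were called.

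Depth limits Rpl39l, Rpl29 and Rps27rt, and control 1 had the fewest counts in genes, 3963932.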

Other observations

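The genes most like Rps16 over the 15 libraries with few unaligned pairs were looked up after its values were seen. Of 9358 genes with a mean of at least 10 CPM, 43 had a Pearson correlation over 0.9 with Rps16, and 0 of these were members, whose correlations ran from -0.71 to 0.68 with a median of -0.45. After Rps16-ps2 (0.99) came Mrpl12, a mitochondrial ribosomal protein, with 0.98 and 20.0 to 56.2 CPM, a 2.82-fold range. Txn2, the mitochondrial thioredoxin, had 0.97 and a 1.89-fold range, and Hexim1, an inhibitor of P-TEFb, 0.97 and a 1.75-fold range. Scd2, a stearoyl-CoA desaturase, had 0.96 and a 1.32-fold range. In control 1, where Rps16 was lowest, Mrpl12, Txn2 and Hexim1 stood at 39.9, 81.3 and 41.5 CPM, inside or above their ranges over the 15 libraries. The points share libraries, depth and scaling, and these values are a description.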
